A study of Mus musculus with 46 samples.

Results

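A set of 10 genes that encode MAP kinase phosphatases or inhibitors of receptor tyrosine kinase signalling was followed through the fed, fasted and leptin-treated states of AgRP neurons: *Dusp1*, *Dusp4*, *Dusp5*, *Dusp6*, *Dusp8*, *Dusp10*, *Dusp14*, *Spry2*, *Spry4* and *Spred1*. They were taken by name from a count table of 31854 genes, and all 10 passed the expression filter (a mean over 1 CPM, counts scaled by library size). Open chromatin around them was read from the ATAC-seq peaks within 50 kb of their start sites, 99 of 123721 peaks, of which 81 passed the same filter.

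The MAP kinases ERK, JNK and p38 carry signals from growth factors, synaptic activity and stress to the nucleus. Dual-specificity phosphatases switch them off by removing the phosphates from the threonine and tyrosine of their activation loop, and each has its preferred kinase and compartment. Sprouty and Spred proteins act further upstream, between activated receptors and RAF. Many of these genes are themselves switched on by the signal they curb, so that their transcripts are commonly read as a trace of recent MAP kinase activity. AgRP neurons of the arcuate nucleus (ARC) drive feeding, are active in hunger and respond to leptin, the hormone of fat stores, whereas the neighbouring POMC neurons restrain feeding.

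RNA came from NuTRAP mice, in which Cre releases a GFP-tagged ribosomal protein so that the translating RNA of 1 cell type can be pulled out of a tissue. The Cre was driven from the *Agrp* or the *Pomc* locus (AgRP-IRES-Cre, POMC-IRES-Cre), the mice were males of 6 to 11 weeks, and each sample pooled the ARC of 4 mice. Fed mice had free access to food and received PBS. Fasted mice went without food for 18 to 20 h and received PBS, and leptin-treated mice were fasted alike and received 5 mg/kg leptin intraperitoneally, with all tissue taken 3 h after the injection. AgRP RNA was available from 3 fed, 4 fasted and 4 leptin-treated samples, POMC RNA from 2 per state, and ATAC-seq of AgRP nuclei from 2 per state. A further ATAC-seq table held nuclei sorted as AgRP-positive or AgRP-negative from the same pooled tissue, 2 libraries each, and 1 CUT&RUN library held IRF3 binding in AgRP nuclei of mice with IRF3-2D, a constitutively active IRF3. Depth was 25581041 to 54511107 counts per RNA library, 8263234 to 17190963 per ATAC-seq library of the states and 8685497 to 11177208 per library of sorted nuclei. In fed mice *Agrp* was higher in AgRP than in POMC libraries (log2 fold change 5.62) and *Pomc* lower (-5.80). *Slc1a2*, an astrocyte glutamate transporter, stood at 20150 to 25850 CPM in the AgRP libraries numbered 4 against 2378 to 3844 CPM in the others, so results that depend on those libraries are given with and without them. In POMC libraries it stood at 23290 to 26930 CPM in those numbered 2 and 5210 to 6196 CPM in those numbered 1, 1 of each per state.

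*Dusp5* encodes a nuclear phosphatase that acts on ERK. It lies on chromosome 19 from 53529145 to 53541809 (GRCm38, forward strand). Its promoter is printed because this gene had the largest change of the 10 and because its start site is open in every state, as described further on. The 300 bases from 250 before to 50 after the start (RefSeq, GRCm38.p6, chr19:53528895-53529194, forward strand) held 2 serum response elements (SRE, the binding sequence of SRF) side by side, followed by the core TGACG of the cyclic AMP response element (CRE) on the opposite strand. The promoter of *Dusp1*, an inducible phosphatase of p38, JNK and ERK, is shown beside it (chr17:26508423-26508722, reverse strand) since it held a full CRE, TGACGTCA, and a separate CRE core, but no SRE. Capitals mark the matches.
Dusp5 promoter: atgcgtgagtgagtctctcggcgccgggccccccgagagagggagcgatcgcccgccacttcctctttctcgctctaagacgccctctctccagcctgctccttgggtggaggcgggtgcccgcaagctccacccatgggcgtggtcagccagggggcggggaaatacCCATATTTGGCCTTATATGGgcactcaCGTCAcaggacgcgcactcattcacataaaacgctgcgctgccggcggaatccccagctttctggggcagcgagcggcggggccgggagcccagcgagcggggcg
Dusp1 promoter: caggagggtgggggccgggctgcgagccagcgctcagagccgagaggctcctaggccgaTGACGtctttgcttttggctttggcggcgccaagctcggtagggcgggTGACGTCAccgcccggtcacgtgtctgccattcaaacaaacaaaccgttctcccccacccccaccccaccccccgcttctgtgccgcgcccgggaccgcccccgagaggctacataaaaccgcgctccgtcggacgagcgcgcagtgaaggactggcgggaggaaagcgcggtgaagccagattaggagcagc

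Across the 8 genes with a promoter in the RefSeq table (*Dusp4* and *Spry4* have none there), the full CRE was found at *Dusp1* and *Dusp8*, 2 of 8 against 1.79% of all 32851 promoters. The SRE was found at *Dusp5* alone, 1 of 8 against 1.63%. The CRE core, which every full CRE contains, was in 3 of 8 against 20.8%, and the STAT motif TTCNNNGAA in 1 of 8 (*Dusp14*) against 8.3%. The AP-1 motif TGAGTCA (5.2% of all promoters) and the ETS motif CCGGAAG (8.86%) were in none of the 8. Both strands were searched.

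In fed AgRP neurons the levels per kb of exon ranged from 0.989 CPM per kb for *Dusp5* to 43.8 CPM per kb for *Spred1*, which recruits the RAS inhibitor neurofibromin. *Dusp8*, a phosphatase of JNK and p38, came second at 38.6 CPM per kb and overlapped *Spred1* between libraries. Far below them followed *Spry4* (8.42), *Dusp14* (7.37), *Dusp1* (6.94) and *Spry2* (6.88 CPM per kb), each overlapping its neighbour in this order. *Dusp6* (4.41), *Dusp10* (3.39), *Dusp4* (2.39) and *Dusp5* (0.989 CPM per kb) did not overlap one another. In fasted mice *Spry4* (16.6) and *Spry2* (12.3 CPM per kb) no longer overlapped the genes next to them, and *Dusp5* (3.99 CPM per kb) had passed *Dusp4* (2.16 CPM per kb).

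**Figure D1:**
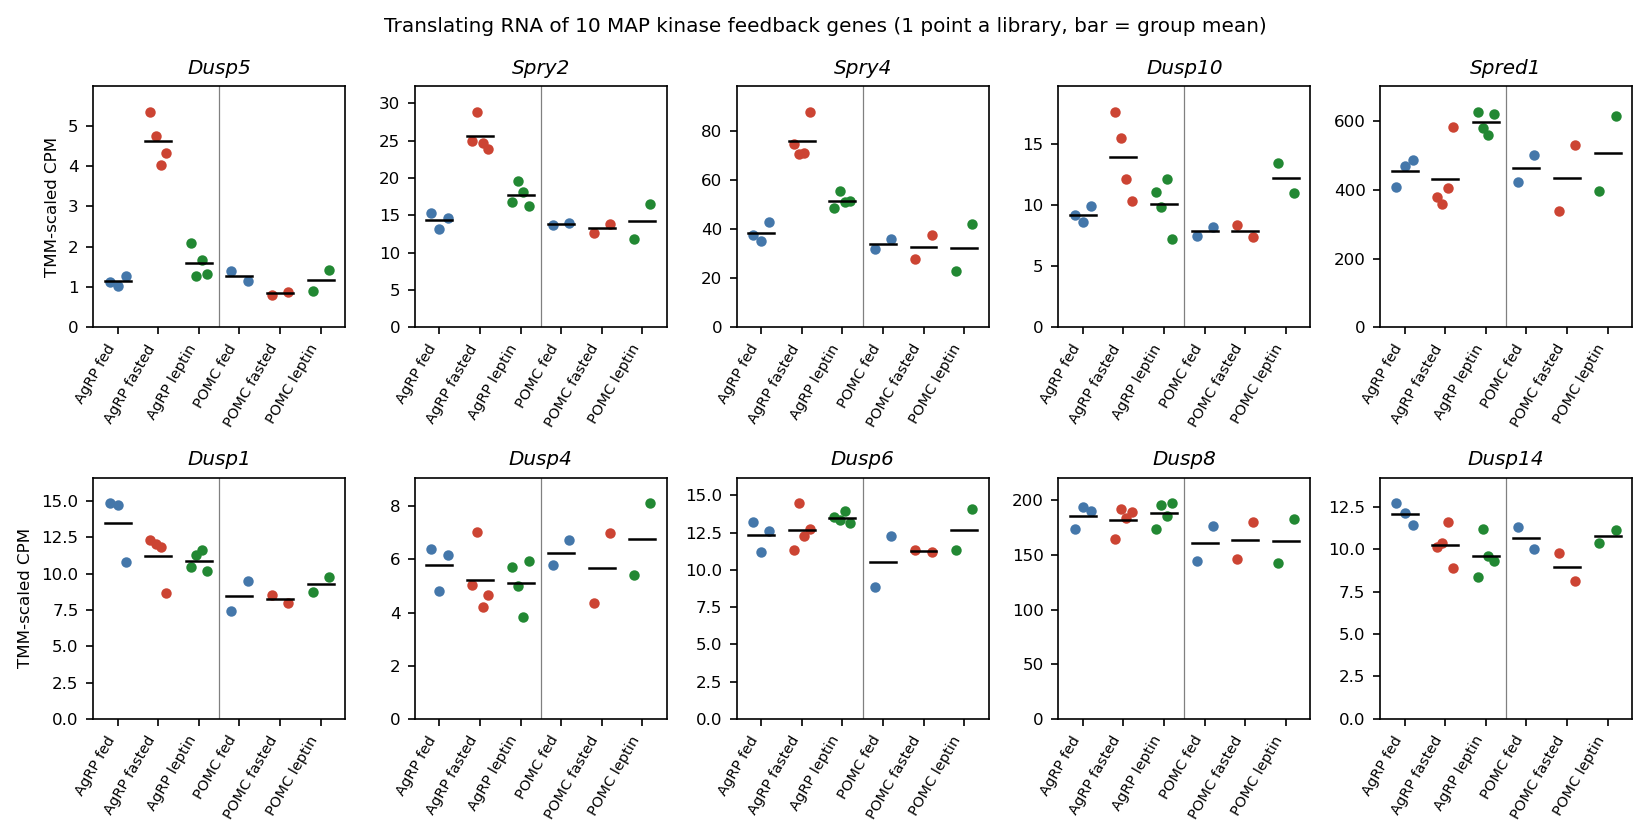
TMM-scaled CPM (linear axes from 0, each gene on its own scale) of the 10 genes in each RNA library of AgRP and POMC neurons, by state; a point is 1 library and a bar the group mean. *Dusp5*, *Spry2* and *Spry4* were higher in all 4 fasted AgRP libraries than in all fed and leptin-treated ones.

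Fasting raised the ERK phosphatase *Dusp5* and the Sprouty genes *Spry2* and *Spry4* in AgRP neurons, and leptin lowered the same 3 genes. *Dusp5* was at 1.13, 1.03 and 1.26 CPM in the fed libraries and at 5.34, 4.75, 4.03 and 4.33 CPM in the fasted ones. After leptin it was at 2.09, 1.28, 1.68 and 1.32 CPM, below every fasted library. These are low counts, 31 to 42 reads per fed library, 125 to 245 per fasted and 44 to 92 per leptin-treated library. The log2 fold change was 2.03 (SE 0.20) from fed to fasted, a 4.08-fold rise (edgeR quasi-likelihood test, FDR = 0.000798), and -1.54 (SE 0.17, FDR = 0.000745) from fasted to leptin-treated.

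*Spry4* (chromosome 18, 38586247 to 38601347, reverse strand) and *Spry2* (chromosome 14, 105891947 to 105896819, reverse strand) encode membrane-associated inhibitors that dampen the activation of ERK by growth factor receptors. *Spry4* was at 37.7, 35.3 and 43.1 CPM in the fed libraries, 74.7, 70.8, 71.3 and 88.0 CPM in the fasted and 48.7, 55.7, 51.0 and 51.5 CPM in the leptin-treated ones. The 3 groups did not overlap, and the leptin-treated group lay between the others. Its log2 fold change was 0.99 (SE 0.11, FDR = 0.00126) with fasting and -0.56 (SE 0.10, FDR = 0.0137) with leptin. *Spry2* was at 15.3, 13.2 and 14.6 CPM in fed, 24.95, 28.8, 24.7 and 23.9 CPM in fasted and 16.8, 19.6, 18.1 and 16.2 CPM in leptin-treated libraries. The order of the groups was the same, again without overlap. Its log2 fold change was 0.85 (SE 0.10, FDR = 0.00151) with fasting and -0.54 (SE 0.09, FDR = 0.00998) with leptin.

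Thus 3 of the 10 genes rose with fasting and none fell, where 2.81% of the 13401 genes tested rose. The same 3 fell with leptin and none rose, where 0.604% of all genes fell. The 10 genes were chosen with earlier results of these data known. The shares given here and for their peaks and motifs are therefore no test of enrichment. The fasted libraries enter both contrasts, so a high value in them raises the first and lowers the second. The fasting calls of the 3 genes held under DESeq2 and with each library left out. For leptin, *Spry2* lost its call with scaling by library size alone (FDR = 0.123) and without fasted replicate 2 (log2 fold change -0.47). *Spry4* lost it without fasted replicate 4 (-0.46), without leptin replicate 1 (FDR = 0.0529) and without the libraries numbered 4 (-0.48). In ribosome-bound RNA pooled from a tissue, a change in RNA per cell and a change in the number or yield of tagged cells cannot be told apart.

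**Figure D2:**
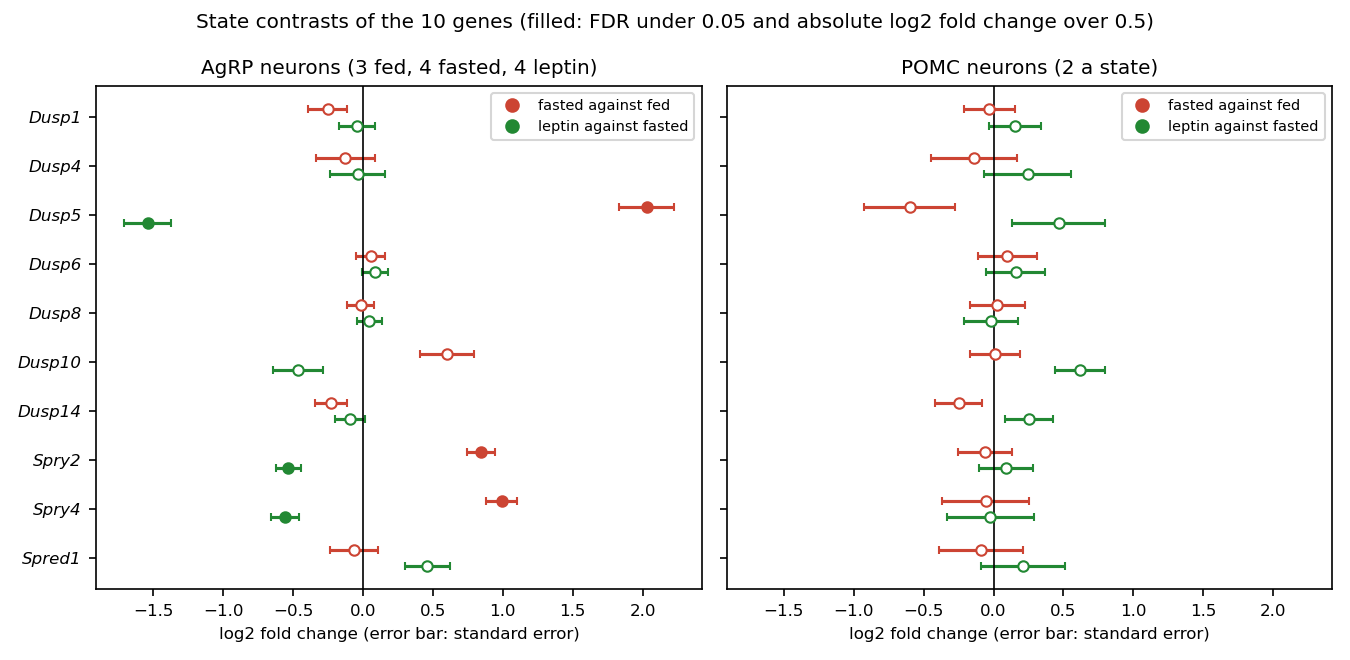
Log2 fold change with its standard error (bars) of each of the 10 genes for fasted against fed and for leptin-treated against fasted mice, in AgRP and in POMC neurons; filled points passed both limits (FDR under 0.05, log2 fold change beyond 0.5 either way). *Dusp5*, *Spry2* and *Spry4* lay to the right in the AgRP fasting contrast and to the left in the AgRP leptin contrast, and no POMC point was filled.

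*Dusp10*, a phosphatase of p38 and JNK, was at 9.16, 8.59 and 9.87 CPM in fed and 17.6, 15.5, 12.1 and 10.3 CPM in fasted AgRP libraries. The groups did not overlap, but the lowest fasted library, the one numbered 4, was close to the highest fed one. The log2 fold change was 0.60 (SE 0.19) and did not pass the test (FDR = 0.110), whereas it passed with the replicate number as a block (0.56, FDR = 0.0289) and without the libraries numbered 4 (0.75, FDR = 0.0270). After leptin *Dusp10* was at 11.0, 9.83, 12.1 and 7.18 CPM, which overlapped the fasted libraries (-0.47, FDR = 0.368).

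*Spred1* was at 410.0, 470.2 and 488.4 CPM in fed and 380.8, 358.8, 407.1 and 583.3 CPM in fasted libraries, which overlapped (-0.06, SE 0.17, FDR = 0.910). After leptin it was at 627.4, 579.0, 561.1 and 622.4 CPM, above all fed libraries and above 3 of the 4 fasted ones. The fasted library that overlapped was the one numbered 4. The log2 fold change with leptin was 0.46 (SE 0.16, FDR = 0.272) and became 0.66 (FDR = 0.00770) without that library and 0.62 (FDR = 0.00727) without all 3 libraries numbered 4. In each same-numbered pair *Spred1* was higher after leptin (4 of 4), and with the replicate block the change was 0.49 (FDR = 0.00661), just short of the fold limit.

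The other members showed no change that passed the test in AgRP neurons. The inducible *Dusp1* was at 14.9, 14.7 and 10.8 CPM in fed and 12.3, 12.1, 11.9 and 8.67 CPM in fasted libraries (-0.25, SE 0.14, FDR = 0.362). *Dusp14* had a log2 fold change of -0.23 (SE 0.12, FDR = 0.327). *Dusp6*, the cytoplasmic phosphatase of ERK, was at 11.2 to 13.2 CPM in fed and 11.4 to 14.5 CPM in fasted libraries (0.06, SE 0.10). *Dusp4*, a nuclear phosphatase, had a log2 fold change of -0.13 (SE 0.21) and *Dusp8* one of -0.02 (SE 0.10). With leptin the log2 fold changes were -0.04 (SE 0.13) for *Dusp1*, -0.04 (SE 0.19) for *Dusp4*, 0.09 (SE 0.10) for *Dusp6*, 0.04 (SE 0.09) for *Dusp8* and -0.09 (SE 0.11) for *Dusp14*. Over the 10 genes the median log2 fold change was 0.02 with fasting and -0.07 with leptin, against 0.02 and -0.01 over all genes tested. *Dusp6* overlaps the gene Gm34921 and *Dusp8* overlaps Gm32786 on the opposite strand, and the library kit does not mark strand, so that reads of either pair cannot be told apart.

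Leptin-treated fasted mice were also set against fed mice, a contrast added after the levels were seen. None of the 10 genes passed both limits, where 5.4% of all genes did. By edgeR 5 had an unadjusted p under 0.05, where 3084 of all 13401 genes did, and DESeq2 called none. *Spry4* remained higher than in fed mice (0.43, SE 0.11, FDR = 0.0364) but stayed under the fold limit of 0.5, and it passed it without fed replicate 4 (0.51). *Spry2* (0.31, SE 0.10, FDR = 0.0799) and *Dusp5* (0.49, SE 0.20, FDR = 0.161) were also above all fed libraries. *Dusp14*, at 12.7, 12.2 and 11.4 CPM in fed and 8.37, 11.2, 9.58 and 9.30 CPM in leptin-treated libraries, was below them (-0.32, SE 0.12, FDR = 0.121).

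In POMC neurons the 3 genes were not higher in fasted than in fed libraries. *Dusp5* was at 1.41 and 1.14 CPM in fed, 0.810 and 0.870 CPM in fasted and 0.900 and 1.43 CPM in leptin-treated libraries. The fasted libraries were the lowest, opposite to AgRP neurons, at a log2 fold change of -0.60 (SE 0.33, FDR = 1). *Spry4* was at 32.1 and 36.2 CPM in fed and 27.9 and 37.7 CPM in fasted libraries, and *Spry2* at 13.7 and 13.9 against 12.6 and 13.9 CPM. *Dusp10* was at 8.33 and 7.39 CPM in fasted and 13.4 and 11.0 CPM in leptin-treated POMC libraries, higher without overlap (0.62, SE 0.18, FDR = 1). With 2 libraries per state edgeR called none of the 10 genes for fasting (no gene at an unadjusted p under 0.05) or for leptin (1 gene at an unadjusted p under 0.05). DESeq2 called none either, and 0% of all genes were called by edgeR in each of these contrasts. Of all 13412 genes tested, 273 had an unadjusted p under 0.05 for fasting and 151 for leptin.

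The difference between the cell types was tested directly. The fasting effect on *Dusp5* was larger in AgRP than in POMC neurons by 2.62 on the log2 scale (SE 0.36, FDR = 0.00946), 1 of the 10 genes where 0.134% of all genes were higher. This call was lost without POMC fasted replicate 1 (FDR = 0.0977), POMC fasted replicate 2 (FDR = 0.0592) or POMC fed replicate 1 (FDR = 0.0621), while the difference stayed between 2.46 and 2.76. For *Spry2* the difference was 0.90 (SE 0.20, FDR = 0.0794) and for *Spry4* 1.04 (SE 0.28, FDR = 0.171). Both passed with the replicate block (FDR = 0.00258 and 0.00135) and with DESeq2 (FDR = 0.00484 and 0.0424). These fits also called more genes as a whole. Over all genes the calls went from 18 higher and 3 lower to 586 and 251 with the block and 125 and 41 with DESeq2. For leptin none of the 10 genes passed by edgeR, where 0.0744% of all genes did. An unadjusted p under 0.05 was found for 3 of the 10 and for 380 of all 13435 genes. *Dusp5* was nearest (-2.02, SE 0.35, FDR = 0.0517) and passed with the block (FDR = 0.0125) and with DESeq2 (FDR = 0.00106). Over all genes the leptin calls went from 6 higher and 4 lower to 47 and 60 with the block and 26 and 13 with DESeq2. *Dusp10* differed by -1.10 (SE 0.31, FDR = 0.572).

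The cell types were also compared with each other, in the fed state. None of the 10 genes passed the test with edgeR or DESeq2, where 2.18% of all genes did by edgeR. An unadjusted p under 0.05 was found for 1801 of all 13453 genes and for 1 of the 10. That gene was *Dusp1*, at 14.9, 14.7 and 10.8 CPM in AgRP and 7.43 and 9.49 CPM in POMC libraries (0.67, SE 0.20, FDR = 0.208). The genes that rose with fasting differed by -0.17 (SE 0.24) for *Dusp5*, 0.05 (SE 0.13) for *Spry2* and 0.18 (SE 0.13) for *Spry4*.

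Of 129 other genes of the pathway tested, 9 passed with fasting by edgeR and 11 by DESeq2, where 2.81% of all genes rose and 1.08% fell by edgeR. Of 15 further dual-specificity phosphatases tested and 3 further Sprouty and Spred genes, none passed in the fasting or the leptin contrast with edgeR or DESeq2. These lists too were chosen with earlier results of these data known, so their shares are no test of enrichment. Calls in the pathway and marker lists were counted without the replicate block. Over all genes the block raised the fasting calls from 376 higher and 145 lower to 591 and 346, so genes not called here may pass with it. Of the 15 phosphatases 1 had an unadjusted edgeR p under 0.05 with fasting and 2 with leptin, and of the 3 Sprouty and Spred genes 1 and 0. Of all 13401 genes, 2565 had such a p with fasting and 1220 with leptin. Of 41 genes of the ERK cascade, the ERK substrate kinase *Rps6ka2* rose with fasting (0.58, SE 0.13) and the RAS activator *Rasgrp1* fell by 0.83 on the log2 scale (SE 0.13). Of 24 tested genes of the JNK and p38 cascade, the p38 activator *Map2k3* rose (0.85, SE 0.17). Of 25 tested transcripts known to respond to ERK, 4 rose and 1 fell, where 2.81% of all genes rose. *Epha2*, a receptor tyrosine kinase, rose by 1.90 (SE 0.26) from a low mean of 0.81 CPM in fed libraries. The AP-1 subunit *Fos* rose by 1.35 (SE 0.20), the EGF receptor inhibitor *Errfi1* by 0.99 (SE 0.11) and *Myc* by 0.95 (SE 0.13), while *Klf10* fell by 0.61 (SE 0.15). The median of that list was 0.19 against 0.02 over all genes. Of 21 receptors, *Fgfr4* fell by 1.69 (SE 0.30).

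With leptin 3 of 129 pathway genes passed by edgeR and 5 by DESeq2, where 1.19% of all genes rose and 0.604% fell by edgeR. *Errfi1* fell by 0.56 (SE 0.10) and *Fgfr4* rose by 1.46 (SE 0.28). *Map3k1*, a kinase upstream of JNK, rose by 0.65 (SE 0.12). No gene of the ERK cascade list passed with edgeR or DESeq2. An unadjusted edgeR p under 0.05 was found for 6 of 41 and for 1220 of all 13401 genes. In leptin-treated fasted against fed mice 8 of 129 passed by edgeR and 9 by DESeq2, where 5.4% of all genes did by edgeR. Among them *Fos* (0.76), *Myc* (0.98), *Epha2* (1.57) and *Map2k3* (0.95) were still higher. *Dusp26* (0.62), *Map3k11* (0.54) and the leptin receptor gene *Lepr* (1.21) were higher and *Mapkapk3* was lower (-0.95). Between the cell types in fed mice 6 of 128 passed by edgeR and 11 by DESeq2, where 2.18% of all genes did by edgeR. *Dusp16* (0.71), *Rasgrp1* (1.124), *Rps6ka5* (0.93), *Fosl2* (1.07), *Errfi1* (1.05) and *Fgfr4* (3.44) were higher in AgRP neurons.

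Markers of astrocytes, oligodendrocytes and microglia were lower at the median in fasted than in fed AgRP libraries, with overlapping ranges. The summed level of 7 astrocyte markers was 600.2 to 927.2 CPM in fed and 494.5 to 989.8 CPM in fasted libraries (medians 719.6 and 524.2 CPM), that of 7 oligodendrocyte markers 503.1 to 790.9 against 440.6 to 728.8 CPM (medians 699.5 and 496.1 CPM), and that of 7 microglia markers 24.3 to 43.3 against 18.4 to 40.8 CPM (medians 42.2 and 19.9 CPM). The median log2 fold change with fasting was -0.22 over the astrocyte, -0.42 over the oligodendrocyte and -0.63 over the 5 tested microglia markers, against 0.02 over all genes. Tanycyte and ependymal markers did not share this, at 0.19 with 4 of 5 tested above 0. Their summed level had medians of 88.6 CPM in fed and 86.5 CPM in fasted libraries. Endothelial markers did not share it either, at 0.08 with 3 of 5 above 0. Their summed medians were 81.15 CPM in fed and 83.6 CPM in fasted libraries. The 2 tested oligodendrocyte precursor markers were at -0.19. No marker gene of the 8 lists (41 tested) passed in the fasting or leptin contrast with edgeR. An unadjusted p under 0.05 was found for 9 and 4 of them, and for 2565 and 1220 of all 13401 genes. The paper, also with edgeR, reported *Agrp* and *Npy* as induced by fasting and *Otp* as induced by fasting and repressed by leptin. It reported more genes in both contrasts than were called here, and the reason was not examined. DESeq2 called 3 AgRP neuron markers with fasting and 2 markers with leptin. In leptin-treated fasted against fed mice edgeR called 2 of the 41, *Agrp* (1.69, SE 0.47) and the tanycyte marker *Vim* (0.66, SE 0.16), and DESeq2 called 4. The 6 AgRP neuron markers summed to 1258 to 1976 CPM in fed, 2348 to 5799 CPM in fasted and 1668 to 5939 CPM in leptin-treated libraries, thus higher in all fasted than in all fed libraries. This sum includes *Agrp* and *Npy*, at fed means of 383.5 and 600.4 CPM, which the paper lists as fasting-induced. It therefore cannot separate a change in RNA per cell from a change in tagged cells. The part of the marker changes in the results was not tested.

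Chromatin opened around these genes with fasting. Of the 81 peaks tested, 25 were higher in fasted than in fed AgRP nuclei and 4 were lower, where 19% of all 102237 peaks tested were higher and 8.36% lower. All 25 lay outside the range of the fed libraries, which adds nothing to the calls, since the same values selected them. Of the 25, 24 were intergenic or in introns, a share that was not counted over all fasting-opened peaks. *Dusp5* had 6 of its 10 peaks higher, *Dusp1* 4 of 10, *Dusp4* 4 of 12, *Dusp10* 3 of 6, *Dusp14* 3 of 9, *Dusp6* and *Dusp8* 2 each of 8 and 10, and *Spry4* 1 of 5. *Spry2* had none of 5 and *Spred1* none of 6. At the RefSeq start sites themselves no peak rose, though GENCODE places the gene start 53656 bases away for *Dusp1* and 21079 bases away for *Dusp10*. The 8 peaks that covered a start site changed by -0.52 to 0.18 on the log2 scale, and only that of *Spred1* passed (-0.52, SE 0.15, FDR = 0.0136). A window of 25 kb held 15 called peaks and one of 100 kb 45, and the 29 calls became 16 without fasted replicate 2.

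**Figure D3:**
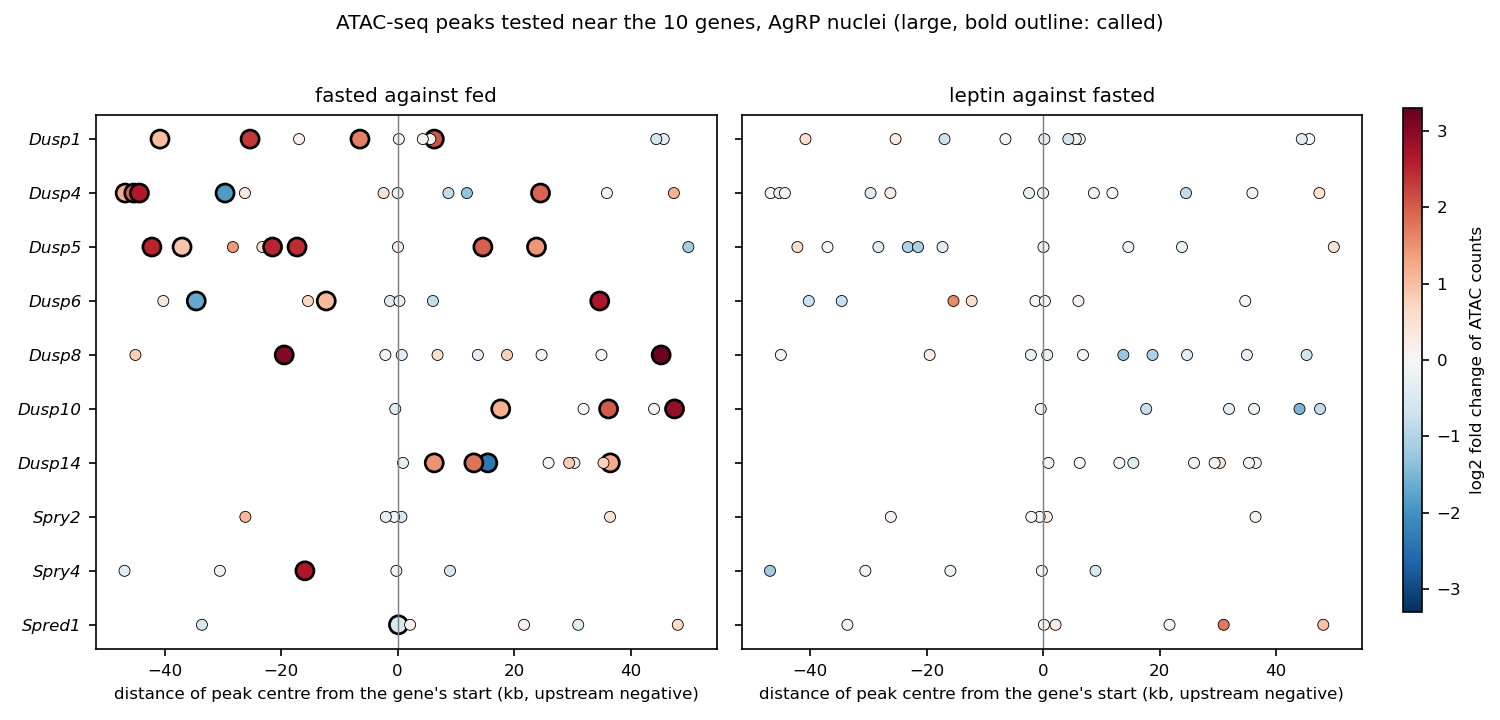
ATAC-seq peaks tested within 50 kb of the start site of each of the 10 genes, by the distance of their centre from the start in kb (upstream negative), for fasted against fed (left) and leptin-treated against fasted nuclei (right); colour gives the log2 fold change and large points with a bold outline passed the test. The 25 peaks that rose with fasting (red) lay away from the RefSeq start sites, and no peak passed with leptin.

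The *Dusp5* region held the most peaks that rose. Its most accessible distal peak, at -17.3 kb from the start (chr19:53511654-53512074, intergenic), was at 1.37 and 4.18 CPM in fed and 17.3 and 14.5 CPM in fasted nuclei (2.43, SE 0.39, FDR = 0.000226). It was at 14.7 and 10.4 CPM after leptin (-0.34, SE 0.34). The peak at -21.5 kb (chr19:53507548-53507779) was at 0.869 and 0.865 CPM in fed, 5.93 and 4.05 CPM in fasted and 3.19 and 1.56 CPM in leptin-treated nuclei. It rose by 2.51 (SE 0.48) with fasting and was lower after leptin without overlap, though short of the test (-1.08, SE 0.41, FDR = 0.244). Downstream, at 14.6 kb (chr19:53543491-53544068), a peak was at 1.61 and 3.03 CPM in fed, 9.24 and 9.77 CPM in fasted and 8.75 and 7.87 CPM in leptin-treated nuclei (1.98, SE 0.36, FDR = 0.000620). The start site peak was open throughout, with fed libraries on both sides of the others, at 16.4 and 32.4 CPM in fed, 27.6 and 28.2 CPM in fasted and 23.6 and 26.2 CPM in leptin-treated nuclei (0.18, SE 0.25).

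**Figure D4:**
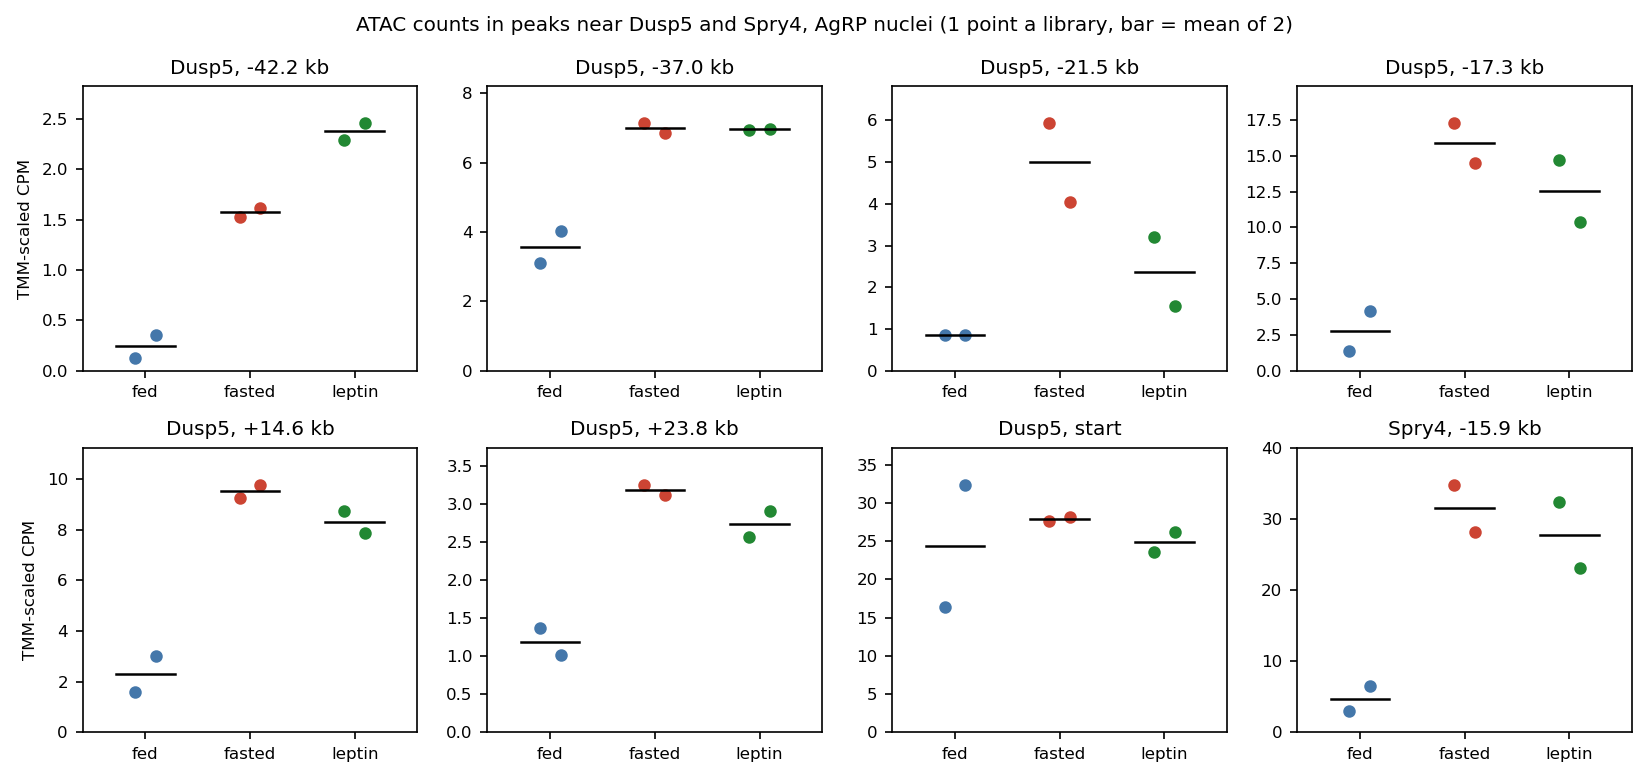
TMM-scaled CPM of the 6 *Dusp5* peaks that rose with fasting, the *Dusp5* start site peak and the *Spry4* peak at -15.9 kb in fed, fasted and leptin-treated AgRP nuclei; a point is 1 library, a bar the mean of 2, and panels are named by the distance from the start in kb. The 7 distal peaks, shown because they were called, were higher in both fasted libraries than in both fed ones. The fed libraries of the *Dusp5* start site peak overlapped those of both other states.

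The central 300 bases of these 3 peaks are printed because each held an AP-1 motif, with that of *Dusp8* at -19.5 kb, which rose by 3.04 (SE 0.46), and, for contrast, of a peak at -34.6 kb from the *Dusp6* start that fell. All are given on the forward strand of GRCm38, with TGAGTCA or its reverse complement in capitals: the *Dusp5* windows are chr19:53511715-53512014, chr19:53507514-53507813 and chr19:53543630-53543929, that of *Dusp8* is chr7:142115242-142115541 and that of *Dusp6* is chr10:99228491-99228790. The last held none of the 6 motifs searched.
Dusp5 -17.3 kb: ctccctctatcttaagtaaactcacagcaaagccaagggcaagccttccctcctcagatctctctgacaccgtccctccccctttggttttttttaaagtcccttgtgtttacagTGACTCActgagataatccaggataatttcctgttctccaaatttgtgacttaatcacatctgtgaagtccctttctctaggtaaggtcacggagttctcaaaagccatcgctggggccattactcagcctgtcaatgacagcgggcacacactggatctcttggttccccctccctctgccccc
Dusp5 -21.5 kb: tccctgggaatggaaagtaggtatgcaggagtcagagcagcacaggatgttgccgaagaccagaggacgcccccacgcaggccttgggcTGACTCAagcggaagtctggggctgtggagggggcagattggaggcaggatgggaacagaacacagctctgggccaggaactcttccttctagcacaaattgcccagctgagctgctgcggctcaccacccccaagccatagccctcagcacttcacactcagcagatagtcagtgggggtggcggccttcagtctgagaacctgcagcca
Dusp5 +14.6 kb: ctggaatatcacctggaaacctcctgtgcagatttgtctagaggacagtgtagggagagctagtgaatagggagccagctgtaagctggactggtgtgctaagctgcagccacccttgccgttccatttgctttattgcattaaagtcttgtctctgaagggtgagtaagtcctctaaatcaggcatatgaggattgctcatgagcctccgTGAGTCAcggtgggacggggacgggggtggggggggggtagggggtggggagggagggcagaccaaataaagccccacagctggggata
Dusp8 -19.5 kb: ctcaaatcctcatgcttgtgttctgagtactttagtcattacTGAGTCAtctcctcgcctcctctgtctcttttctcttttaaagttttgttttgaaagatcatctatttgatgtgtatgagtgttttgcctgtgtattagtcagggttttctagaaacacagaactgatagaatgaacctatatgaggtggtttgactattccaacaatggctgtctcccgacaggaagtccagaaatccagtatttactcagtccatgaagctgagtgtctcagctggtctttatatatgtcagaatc
Dusp6 -34.6 kb: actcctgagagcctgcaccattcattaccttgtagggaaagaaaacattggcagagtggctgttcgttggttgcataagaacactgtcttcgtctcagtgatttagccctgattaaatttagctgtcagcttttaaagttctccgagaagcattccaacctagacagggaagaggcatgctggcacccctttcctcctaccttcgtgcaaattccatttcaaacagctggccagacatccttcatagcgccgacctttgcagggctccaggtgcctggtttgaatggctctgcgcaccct

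The AP-1 motif is bound by FOS and JUN proteins, which MAP kinases activate. It was in 17 of the 25 peaks near these genes that were higher after the fast (68%) and in 9 of the other 56 tested (16.1%). Of all peaks tested 25.1% held it, and of all 19401 that were higher after the fast and had a full window 58.4% did. The search of peaks was added after the fold changes were seen. The ETS motif was in 1 of the 25, the SRE in 1, the STAT motif in 2 and the full CRE in none, against 3.41%, 1.41%, 12.4% and 0.764% of all peaks tested.

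The largest rises were at *Dusp8*, 45.2 kb after the start within an intron of *Mob2* (3.25, SE 0.43), followed by the *Dusp8* peak at -19.5 kb described above, which lies in an intron of Gm32786, and by a peak 47.5 kb after the *Dusp10* start (2.91, SE 0.65). The most accessible distal peak that rose was at *Spry4*, at -15.9 kb in an intron of AC133601.1 (chr18:38616934-38617622). It was at 2.98 and 6.49 CPM in fed, 34.8 and 28.2 CPM in fasted and 32.4 and 23.0 CPM in leptin-treated nuclei (2.68, SE 0.30, FDR = 2.22e-05). *Mob2* and *Arhgap26* are coding genes with starts within 50 kb of *Dusp8* and *Spry4*, and the peaks cannot be assigned to one gene. The falls were at *Dusp6*, *Dusp14*, *Dusp4* and the *Spred1* start. The *Dusp6* peak at -34.6 kb (chr10:99228166-99229114) covers the start of Gm34574, and was at 45.2 and 40.0 CPM in fed, 12.8 and 13.4 CPM in fasted and 7.01 and 8.42 CPM in leptin-treated nuclei. It fell by 1.70 on the log2 scale (SE 0.22, FDR = 5.25e-05), and after leptin it was lower again (-0.76, SE 0.23) without passing the test (FDR = 0.114).

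With leptin none of the 81 peaks passed the test by edgeR, where 1.74% of all peaks were called. By this test 10 peaks had an unadjusted p under 0.05, where 12010 of all 102237 peaks tested did. DESeq2 called none and a fit with the replicate number as a block called 1. Over the 25 fasting-opened peaks the log2 fold change with leptin had a median of -0.03 and ranged from -1.08 to 0.59, with 16 of 25 below 0. Over all 19402 fasting-opened peaks the median was 0.05. The start site peaks changed by -0.35 at *Dusp1* to 0.05 at *Spred1*. The fall of *Dusp5*, *Spry2* and *Spry4* RNA after leptin thus stood beside peaks of which none passed the test. Among fasting-opened peaks the largest fall was that of the *Dusp5* peak at -21.5 kb, and a peak 44.0 kb after the *Dusp10* start, not fasting-opened, fell by more (-1.50). The fasting-opened peaks were chosen for high values in the fasted libraries, which are also the baseline here. A link between these peaks and the RNA was not tested.

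Of 67472 peaks in sorted nuclei 39 lay within 50 kb of the 10 genes. In AgRP-positive nuclei 8 were higher and 3 lower than in AgRP-negative nuclei, where 24.1% of all peaks were higher and 15.3% lower. The *Dusp5* peak at -17.3 kb was at 5.06 and 4.997 CPM in AgRP-positive and 1.11 and 1.42 CPM in AgRP-negative nuclei (1.98, SE 0.47), and a *Dusp5* peak at -23.2 kb was likewise higher (1.78, SE 0.34). The *Spry4* peak at -16.0 kb was at 7.11 and 8.58 CPM against 2.71 and 2.01 CPM (1.73, SE 0.36). The peak near *Dusp6* that fell with fasting was at 26.7 and 28.9 CPM against 12.3 and 9.47 CPM (1.35, SE 0.19). *Dusp4* had 3 higher peaks, the largest at -45.3 kb (2.81, SE 0.50). The lower peaks were those nearest the starts of *Spred1* (-0.66, SE 0.12) and *Dusp14* (-0.94, SE 0.22) and another at -1.1 kb of *Spred1* (-1.07, SE 0.36).

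IRF3, a transcription factor of innate immunity, was mapped in 1 CUT&RUN library. Of the 99 peaks 14 overlapped an IRF3 region by at least 1 base (14.1%, 95% Wilson interval 8.61 to 22.4%), against 8.42% of all ATAC-seq peaks. The 14 include the peaks over the starts of *Dusp1*, *Dusp8*, *Dusp10* and *Spry4*. None of the 25 fasting-opened peaks was among them, but 24 of these 25 were intergenic or in introns. The share over all fasting-opened peaks was not counted, so no lack of IRF3 at such peaks can be read from this. With an overlap of at least 0.5 of the peak's length the share was 2.02% against 1.79%, and with IRF3 regions of a maximum signal above the list's median it was 13.1% against 4.89%. The interval covers counting error only and treats neighbouring peaks of the same gene as independent. The peaks compared were not matched for width or for distance from a gene start, so no enrichment can be read from these shares. With 1 library there was no replicate check.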

How the data were processed

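TRAP RNA of AgRP and POMC neurons and ATAC-seq of AgRP nuclei were analysed, and whole ARC RNA was not analysed here. RNA reads had been mapped to mm10 (HISAT2), and the authors deposited counts per gene (featureCounts) from libraries whose kit does not mark strand. For ATAC-seq they aligned with Bowtie2, called peaks with MACS2 and deposited counts per merged peak. For IRF3 CUT&RUN the deposited SEACR list gives a signal per region without a stated scaling, and only its coordinates and maximum were used. It was assigned to its sample as the only SEACR list.

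Counts were fitted with edgeR 4.0.16 in R 4.3.3 (TMM, mean over 1 CPM, quasi-likelihood test, state as the only factor, Benjamini-Hochberg over all features). Calls needed FDR under 0.05 together with a log2 fold change beyond 0.5 either way. Standard errors follow from the F statistic. CPM are TMM-scaled over all 17 RNA libraries. Start sites are RefSeq gene ends (GRCm38.p6, the coordinates of mm10). Peaks were taken if their nearest edge lay within 50 kb of a start, and the distances given are those of the peak centre. Motifs were counted in RefSeq promoters and in the central 300 bases of peaks.

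The model held no replicate term, and the replicate number was tried as a block. In AgRP RNA, residuals of same-numbered libraries correlated at 0.536 to 0.814 (median 0.7, 10 pairs) and those of others at -0.642 to 0.642 (median -0.236, 30 pairs), so the numbers pair these libraries. In POMC RNA the values were 0.733 to 0.77 and in ATAC-seq of the states -0.00228 to 0.165. Positive and negative sorted nuclei came from the same pools. The paper describes the AgRP samples of the 3 states as independent biological replicates, each pooled from 4 mice. For POMC RNA and sorted nuclei, separate pools were taken from the labels. The p-values measure the spread between these samples.

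The 10 genes, the pathway and marker lists and the motifs were chosen with earlier results of these data known. All 10 genes were named in every comparison, with pathway list genes called in an AgRP comparison, the peak nearest each start and the 3 called peaks with the largest change each way, and the other called peaks at *Dusp5*, *Spry4*, *Dusp6*, *Dusp4* and *Spred1* were described after their values were seen. Alternatives were DESeq2 1.42.0, library size scaling, no filter, the block, each replicate left out, the libraries numbered 4 left out, windows of 25 and 100 kb and GENCODE starts. The fits were tested on simulated data.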

Additional observations from a re-analysis of the deposited data

Results flagged for a closer look

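In the fasted AgRP libraries *Dusp1* was at 8.67 CPM in the library numbered 4 and at 11.9 to 12.3 CPM in the other 3. The gap of that library to the nearest one was 0.871 of the range of the group. Of a gene and a group of 4 libraries, 20 pairs were examined, and this was the only one so far apart, where chance gives about 1 in 20. The same library had the highest *Slc1a2* level of the AgRP libraries, 25850 CPM.

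The fasting effect on *Dusp5* differed between AgRP and POMC neurons by 2.62 on the log2 scale in the test of the interaction (edgeR, FDR = 0.00946). All 4 fasted AgRP libraries were above the fed ones and both fasted POMC libraries were below the fed ones.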

How the results depend on the processing

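Of 1025 alternative values 922 kept their direction and their side of the threshold (or moved within the limit for counts), 34 lost the call, 13 gained it, 20 moved and 36 changed sign. The cause was not tested for any of them. With the replicate number as a block, 3 in place of 1 of the 10 genes differed in their fasting effect between the cell types, 1 in place of 0 in their leptin effect, and 1 in place of 0 peaks passed in the leptin contrast. Beside these and *Dusp10* with fasting, the block changed no call of the 10 genes. Over all genes it raised the calls from 18 higher and 3 lower to 586 and 251 in the fasting interaction. In the leptin interaction it raised them from 6 and 4 to 47 and 60. Over all peaks it raised the leptin calls from 1468 higher and 313 lower to 2353 and 1016. No paired analysis was possible because AgRP and POMC fed libraries share fewer than 2 replicate numbers, for the comparison of the cell types. DESeq2 called 3 genes in the fasting and 1 in the leptin interaction, and 7 in place of 11 peaks in sorted nuclei. In the leptin contrast 1 peak passed with library size scaling, with no filter and with a window of 100 kb. Windows of 25 and 100 kb held 15 and 45 called peaks with fasting and 6 and 25 in sorted nuclei. With an overlap of at least 0.5 of the peak the IRF3 share was 2.02%. Values near 0 changed sign with library size scaling for *Dusp6* in AgRP fasting (-0.00080), *Dusp10* in POMC fasting (-0.000304), the *Dusp5* peak at -37.0 kb with leptin (0.00802, and 0.00290 with DESeq2) and the *Dusp5* start in sorted nuclei (0.162), and the *Spry4* start with leptin did so with no filter (-0.00145). Library size scaling moved the median over all peaks of sorted nuclei to 0.162 and the split of called peaks from 16032 higher and 10177 lower to 18227 and 7136. In AgRP fasting it moved the split of called genes from 376 and 145 to 147 and 90.

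With 1 replicate left out at a time, values that changed sign ranged from -0.0145 to 0.116 for *Dusp6*, -0.0691 to 0.0398 for *Dusp8* and -0.260 to 0.0166 for *Spred1* with AgRP fasting. With AgRP leptin they ranged from -0.131 to 0.142 for *Dusp4* and -0.0112 to 0.0900 for *Dusp8*. In POMC neurons they ranged from -0.280 to 0.137 for *Spry4* and -0.0900 to 0.0988 for *Dusp10* with fasting, and from -0.161 to 0.308 for *Spry2* and -0.521 to 0.346 for *Spry4* with leptin. Of the peaks nearest a start, with fasting, *Dusp4* ranged from -0.141 to 0.00057, *Dusp5* from -0.236 to 0.755, *Dusp1* from -0.344 to 0.115, *Spry4* from -0.137 to 0.402 and *Spry2* from -0.277 to 0.0513. With leptin *Spry4* ranged from -0.0744 to 0.0916, *Spry2* from -0.221 to 0.110, the *Dusp5* peak at -37.0 kb from -0.0368 to 0.0303 and the *Spry4* peak at -15.9 kb from -0.445 to 0.0468. In sorted nuclei the start of *Dusp5* ranged from -0.0384 to 0.0227 and that of *Spry4* from -0.0957 to 0.178. The count of called genes ranged from 0 to 1 in leptin-treated against fed mice and in the fasting interaction, and that of called peaks from 16 to 26 with fasting and from 7 to 10 in sorted nuclei. With 2 libraries per state, POMC and ATAC-seq values rest on a spread borrowed across features, and *Dusp5* rests on 31 to 42 reads in fed libraries.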
